A study of Rattus norvegicus with 18 samples.

Results

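The comparison set liver RNA of the 6 NASH-CH rats against that of the 6 NASH rats, which are 12 of the 18 rats of the series, with 1 library per rat. All were male Wistar rats given CCl4, an inhaled hepatotoxin, together with phenobarbital in the drinking water, an inducer of the enzymes that activate CCl4, and a high-fat and high-cholesterol diet (HFCD). NASH rats received CCl4 and phenobarbital for 6 weeks and then the HFCD for 4 weeks, 10 weeks in all, so that CCl4 and phenobarbital had been stopped before the diet began. NASH-CH rats, the model with cirrhosis, received CCl4 and phenobarbital throughout 24 weeks and the HFCD during the last 16, and were still exposed to both agents at the end. The 6 control rats, kept for 12 weeks, are no part of the comparison and are given as a background level. The time on treatment, the age of the rats and the exposure to CCl4, phenobarbital and diet at sampling all changed together between NASH and NASH-CH and cannot be told apart. The sample labels describe the treatment as combined for 10 or 24 weeks, and they name another RNA kit than the methods do.

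In steatohepatitis, fat-laden hepatocytes are injured and die, macrophages take up the debris, and stellate cells and portal fibroblasts lay down matrix. With continued injury the septa join and enclose regenerating nodules, which is cirrhosis. Hepatocytes supply most of the RNA of such tissue, so genes of the scar and of its macrophages are measured at low levels beside secreted liver proteins.

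The 6 NASH libraries held between 20827770 and 29491947 counts and the 6 NASH-CH libraries between 44680344 and 60117822. NASH-CH libraries were therefore deeper, by 2.05 times on average (p = 0.00216 in an exact permutation test of both sides, which is the smallest p for 6 rats against 6), and depth and group cannot be told apart. The signal recognition particle and 7SK RNAs, short non-coding RNAs of the cytoplasm and nucleus, took 15.0% ± 0.973 of the counts in NASH and 11.5% ± 0.753 in NASH-CH (SD, n = 6 each), and the groups did not overlap (exact permutation p = 0.00216). These and other small RNA rows were left out of library sizes and tests. The 10 hepatocyte markers, Alb, Apoa1, Ttr, Tf, Serpina1, Apob, Cyp2e1, Cps1, Hnf4a and Tat, were all well expressed and none was called by limma-voom (0 at an unadjusted p under 0.05 and 0 by edgeR), with a median log2 fold change of -0.02. NASH-CH rat 5 stood apart from the other rats. On the first principal component, which held 28.4% of the variance, it lay at 74.5 where the other NASH-CH rats lay between 2.09 and 19.4 and the NASH rats between -26.8 and -18.3, and its root mean square distance from the other rats of its group was 0.716 on the log2 scale against 0.405 to 0.499 for them. Results that rest on this rat are given with and without it. Rats shared cages, the labels do not tie a rat to its cage, and p-values measure the spread between these rats.

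Few genes separated the groups past the spread between rats. Of 12887 genes tested with limma-voom, 103 (0.799%) had a Benjamini-Hochberg adjusted p under 0.05, of which 46 (0.357%) were higher and 57 (0.442%) lower in NASH-CH, whereas 1042 (8.09%) and 995 (7.72%) passed an unadjusted p under 0.05. The median log2 fold change of all tested genes was -0.0034, and 49.4% of them lay above 0. In 311 genes (2.41%) every rat of one group lay beyond every rat of the other, 168 with NASH-CH above (1.3%) and 143 with NASH-CH below (1.11%). The same was true of 40 of the 46 genes called higher and of 51 of the 57 called lower. The mean of the NASH rats lay nearer to that of the control rats than the NASH-CH mean did in 43 of the 46 genes called higher and in 49 of the 57 called lower. Control libraries, of 19498534 to 27174015 counts, overlapped the NASH libraries in depth and were shallower than every NASH-CH library. Their mean share of 7SL RNA (signal recognition particle) from Rn7sl1 was 7.25%, beside 6.39% for NASH rats and 0.585% for NASH-CH rats. Nearness to the controls and library differences therefore cannot be told apart, and the part of the latter was not tested. Without NASH-CH rat 5, 191 genes were called (1.51%), 93 higher (0.737%) and 98 lower (0.776%), and 98 of the 99 calls that could be tested again were kept. Single rats moved the count in both directions. It was 33 without NASH rat 5, 39 without NASH rat 3, 41 without NASH rat 4, 46 without NASH rat 1, 51 without NASH rat 6 and 46 without NASH-CH rat 2, and it was 156 without NASH-CH rat 6. Of the 46 genes called higher 5, and of the 57 called lower 25, were called in every fit that left out 1 rat and tested them. Scaling by library size alone gave 64 calls, of which 17 were higher and 47 lower, so that 26.6% of the calls were higher, against 44.7% with TMM scaling. The share was 30.1% of 349 calls with small RNA rows kept, 59.4% of 212 calls by edgeR and 59.8% of 732 calls by DESeq2.

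**Figure D1:**
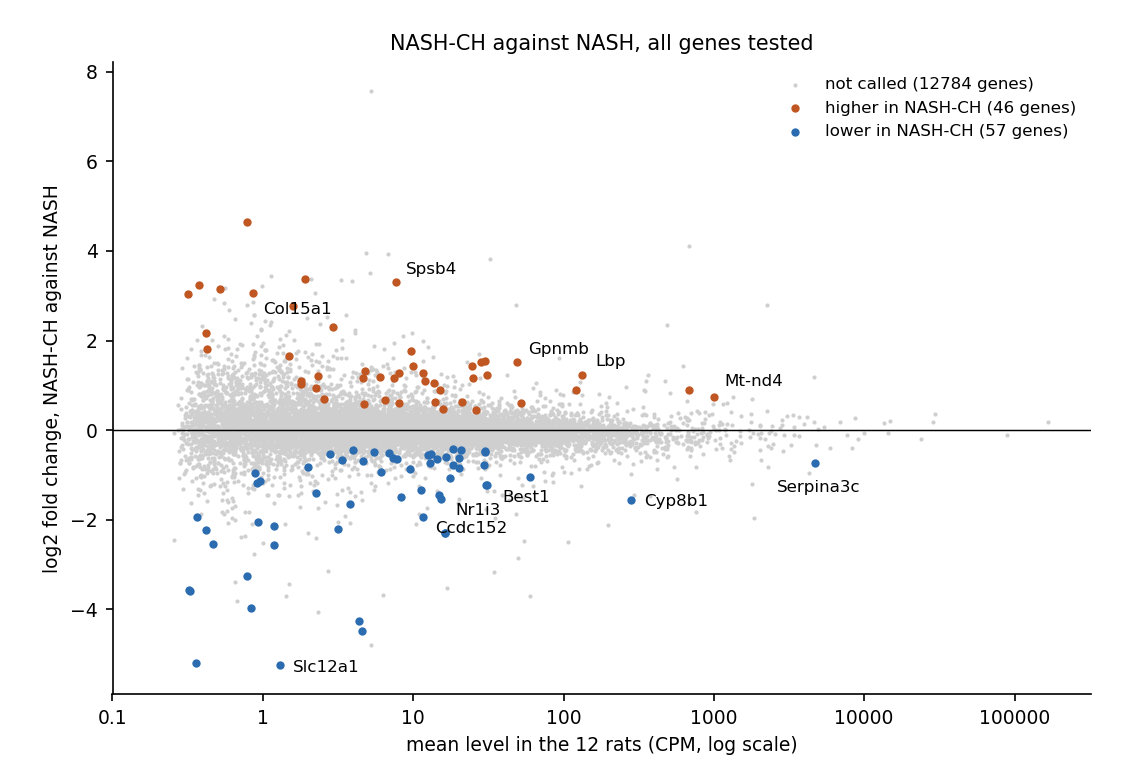
Each point is 1 of the 12887 genes tested, at its mean level in the 12 rats (TMM-scaled CPM, on a log scale) and its log2 fold change, NASH-CH against NASH. The 46 genes called higher are orange and the 57 called lower are blue; the calls range from genes under 1 CPM, such as Col15a1, to Serpina3c, with 3440 CPM in the median NASH-CH rat.

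Gpnmb, Trem2, Atp6v0d2 and Lyz2, all genes of macrophages, rose in NASH-CH. Gpnmb, a transmembrane glycoprotein of lipid-loaded macrophages, was at 17.4, 22.2, 30.7, 29.9, 28.7 and 19 CPM (counts scaled to a common library size) in NASH rats 1 to 6 and at 58.8, 81.4, 86.7, 43.1, 118 and 56.7 CPM in NASH-CH rats 1 to 6. Every NASH-CH rat was above every NASH rat, and the control rats lay lower still, between 3.26 and 11.3 CPM. Gpnmb rose by a log2 fold change of 1.52 ± 0.23 (SE, limma-voom adjusted p = 0.00637), and the call was kept whichever single rat was left out. Trem2, a lipid-sensing receptor of macrophages, ranged from 0 to 0.273 CPM in NASH (median 0.0995) and from 0.563 to 1.53 CPM in NASH-CH (median 0.938), a rise of 3.15 ± 0.52 (limma-voom adjusted p = 0.0148). In the control rats its median was 0, and the NASH and NASH-CH rats did not overlap. Atp6v0d2, a subunit of the proton pump that acidifies lysosomes in macrophages and osteoclasts, was at most 0.104 CPM in NASH and at least 0.315 CPM in NASH-CH, a rise of 3.25 ± 0.47 (limma-voom adjusted p = 0.00569). Lyz2, lysozyme of phagocytes, was between 11.8 and 19.5 CPM in NASH (median 12.9) and between 27.8 and 108 CPM in NASH-CH (median 32.9). NASH-CH rat 5 held the highest value of all 4 genes, and without it Gpnmb and Trem2 were called at 1.39 and 2.95. Lyz2 rose by 1.54 ± 0.28 (limma-voom adjusted p = 0.0252), and by 1.29 (adjusted p = 0.00115) without that rat. In bulk tissue, more cells of a type and more RNA per cell cannot be told apart, here and in all that follows.

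These were the 4 genes called of 41 macrophage genes tested (9.76%), beside 0.357% of all genes called higher. Trem2 and Atp6v0d2, at most at 0.273 and 0.104 CPM in NASH, passed the filter on low counts only through the NASH-CH rats, where they are high. Their part in this share and in the next count is therefore no independent support. Of the 18 lipid-associated or scar genes, 3 were called and 15 lay above 0, with a median log2 fold change of 0.55. Leaving out NASH-CH rat 5 gave a median of 0.22 and 2 called, Gpnmb and Trem2. Mmp12 (metalloelastase) and Spp1 (osteopontin) lay at 1.39 (adjusted p = 0.140) and 1.61 (adjusted p = 0.0872) without passing the test, and Apoe had the lowest value at -0.41. The 12 Kupffer or resident genes had a median of -0.11, with 9 below 0 and 0 called (1 below 0 at an unadjusted p under 0.05), and the difference between these groups of genes was not tested. Clec4f, a lectin that marks Kupffer cells, was between 84.1 and 142 CPM in NASH and between 70.3 and 101 CPM in NASH-CH (log2 fold change -0.25, adjusted p = 0.442). Cd163, the haptoglobin-haemoglobin receptor whose protein the study stained, was between 39.9 and 64.5 CPM in NASH and between 29.1 and 49.9 CPM in NASH-CH (-0.34, adjusted p = 0.291), and Cd68 was at 0.07 (adjusted p = 0.826). Values of Clec4f, Cd163 and Cd68, the last a general macrophage gene, overlapped between the groups. None passed the test, although Cd163 had an unadjusted limma-voom p of 0.0399. Without NASH-CH rat 5 the macrophage list again held 4 called genes, now with Csf1, the macrophage growth factor, at 0.56 (adjusted p = 0.0282) and with Atp6v0d2 not tested because it no longer passed the filter on low counts.

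**Figure D2:**
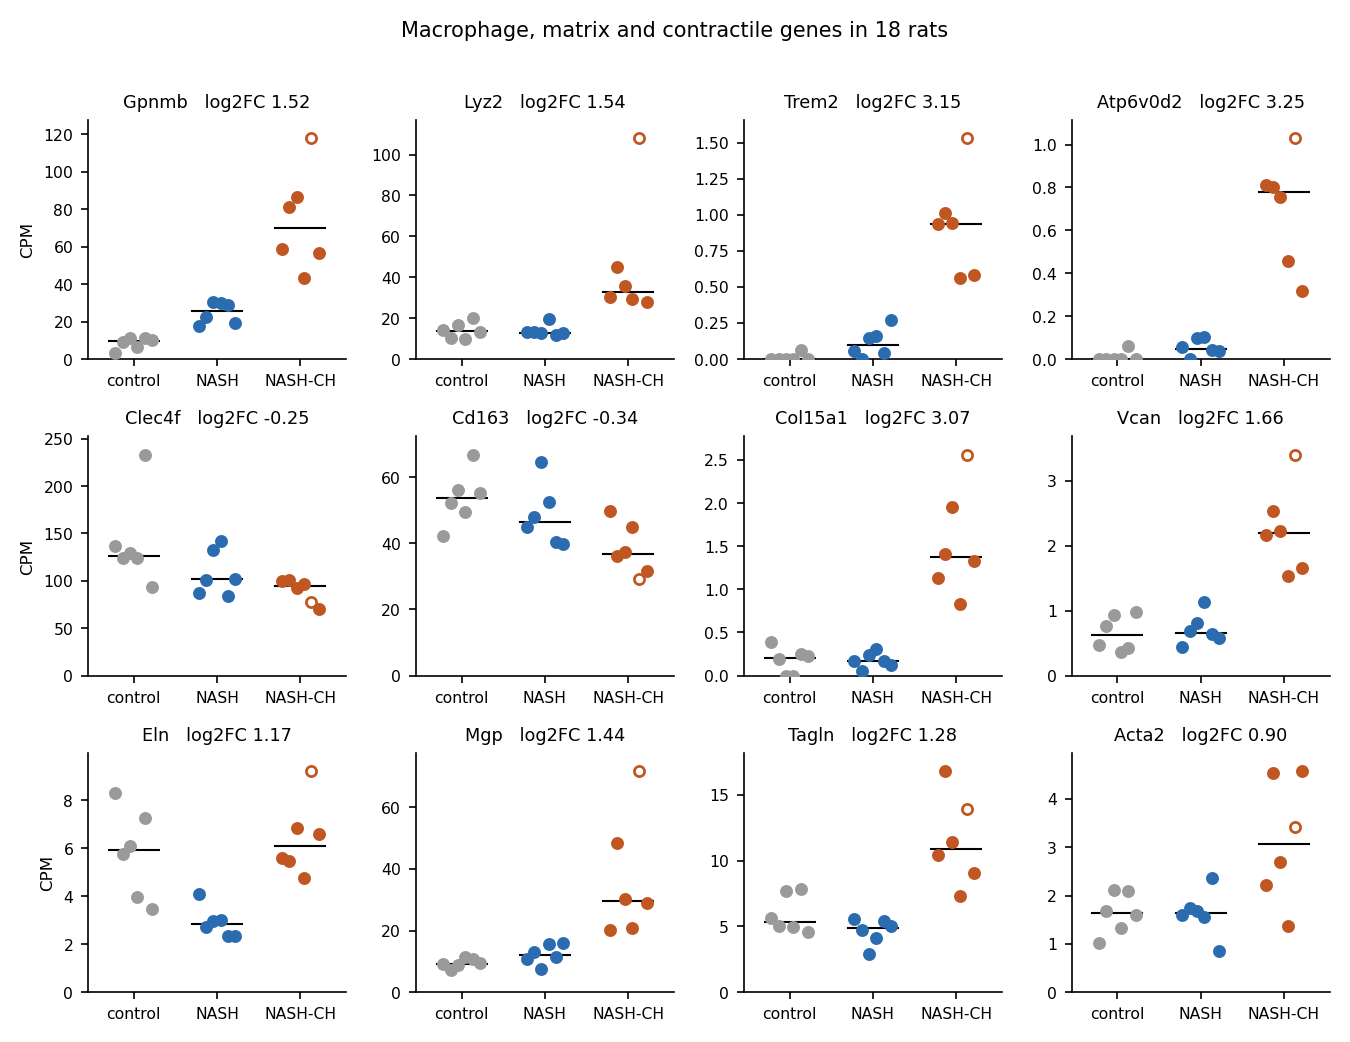
CPM of 12 genes in each of the 18 rats, by group (linear axes from 0); points within a group run from rat 1 to rat 6, the bar is the group median and the open circle is NASH-CH rat 5. Gpnmb, Lyz2, Trem2, Atp6v0d2, Col15a1, Vcan, Eln, Mgp and Tagln had every NASH-CH rat above every NASH rat, while Clec4f, Cd163 and Acta2 overlapped.

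The promoter windows of the called macrophage genes are shown because the 4 genes rose together. A window, from 250 bases before to 50 after the annotated start, was found in the RefSeq table of the GRCr8 build for 3 of the 4, and Atp6v0d2 had no entry there. Capitals mark matches, on either strand, to the M-box TCACATGA, the letters bound by MITF and TFE factors of lysosomal genes, to AP-1 (TGAGTCA) and to the E-box CACGTG, and these letters do not overlap each other in the windows shown. The Gpnmb window lies at chr4:79340878-79341177 on the plus strand, that of Trem2 at chr9:20151730-20152029 on the minus strand and that of Lyz2 at chr7:54797962-54798261 on the minus strand, each written 5′ to 3′ along the gene.
Gpnmb: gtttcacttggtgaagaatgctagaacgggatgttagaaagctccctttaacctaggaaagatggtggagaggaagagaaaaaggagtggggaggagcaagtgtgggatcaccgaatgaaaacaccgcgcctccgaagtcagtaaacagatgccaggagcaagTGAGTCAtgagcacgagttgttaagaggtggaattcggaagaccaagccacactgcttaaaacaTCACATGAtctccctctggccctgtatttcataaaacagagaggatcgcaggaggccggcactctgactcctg
Trem2: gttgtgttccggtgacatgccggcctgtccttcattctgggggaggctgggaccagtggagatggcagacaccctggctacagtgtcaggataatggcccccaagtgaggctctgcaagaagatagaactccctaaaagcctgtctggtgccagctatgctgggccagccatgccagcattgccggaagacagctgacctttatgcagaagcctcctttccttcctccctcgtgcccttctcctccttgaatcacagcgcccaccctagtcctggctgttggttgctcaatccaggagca
Lyz2: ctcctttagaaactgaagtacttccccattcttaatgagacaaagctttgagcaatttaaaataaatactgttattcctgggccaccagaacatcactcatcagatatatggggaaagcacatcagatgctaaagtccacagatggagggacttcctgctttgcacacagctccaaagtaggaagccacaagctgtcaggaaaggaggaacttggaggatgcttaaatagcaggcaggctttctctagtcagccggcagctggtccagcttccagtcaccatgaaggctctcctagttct
The Gpnmb window held 1 M-box and 1 AP-1 match, and the Trem2 and Lyz2 windows held none of the 3 motifs. Of all 33469 windows of this length, 1.16% held the M-box, 4.63% the AP-1 and 6.42% the E-box letters. A match describes these letters only.

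Matrix genes rose in NASH-CH in a few members, of which Col15a1, a basement membrane collagen of vessels and portal fibroblasts, changed most. Col15a1 ranged from 0.0530 to 0.311 CPM in NASH (median 0.168) and from 0.831 to 2.56 CPM in NASH-CH (median 1.37). The groups did not overlap, and the control rats, at 0 to 0.388 CPM, lay with the NASH rats. The rise was 3.07 ± 0.48 (limma-voom adjusted p = 0.0104) and was kept whichever rat was left out, at 2.86 without NASH-CH rat 5, the highest. It was the only limma-voom call among 27 collagens tested (3.7%, beside 0.357% of all genes called higher), whose median was 0.19. EdgeR called 3 of the collagens higher, beside 126 of all 12887 genes. Col15a1 and Col11a1, at most at 0.311 and 0.195 CPM in NASH, passed the filter on low counts only through the NASH-CH rats, where they are high. Their part in these counts and in the next is therefore no independent support. The fibrillar collagens of scar tissue were all above 0 but did not pass the test by limma-voom. Col1a1 was between 6.92 and 15.1 CPM in NASH and between 11.7 and 42.1 CPM in NASH-CH, with overlapping groups (1.00 ± 0.32, adjusted p = 0.147). Col3a1, the most abundant of the fibrillar collagens with a median of 227 CPM in NASH and 354 CPM in NASH-CH, was at 0.48 (adjusted p = 0.128). Col11a1 lay above the NASH rats in every NASH-CH rat but under 2.5 CPM, at 3.16 (limma-voom adjusted p = 0.0607), and was called by edgeR (adjusted p = 0.0203).

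Of 49 other matrix genes tested, 3 rose (6.12%, beside 0.357% of all genes) and the median was 0.39, with 37 above 0. EdgeR called 7 of them higher, beside 126 of all 12887 genes. Versican (Vcan), a large proteoglycan of provisional matrix, was between 0.443 and 1.14 CPM in NASH and between 1.53 and 3.40 CPM in NASH-CH, a rise of 1.66 ± 0.30 (limma-voom adjusted p = 0.0239). Elastin (Eln), the core of elastic fibres, was between 2.32 and 4.09 CPM in NASH and between 4.75 and 9.2 CPM in NASH-CH, a rise of 1.17 ± 0.20 (limma-voom adjusted p = 0.0212). Its control rats, at 3.47 to 8.31 CPM, overlapped the NASH-CH range, so that elastin in NASH-CH lay at the level of the controls. Matrix Gla protein (Mgp), an inhibitor of calcification, was between 7.42 and 16.1 CPM in NASH and between 20.3 and 71.7 CPM in NASH-CH, a rise of 1.44 ± 0.31 (limma-voom adjusted p = 0.0466). All of these had separate groups. With 1 rat left out, Vcan, Eln and Mgp lost their calls in 5, 4 and 9 of the 12 fits. Thrombospondin-1 (Thbs1), an activator of latent TGF-β, and fibulin-1 (Fbln1) did not pass the test by limma-voom, at 1.22 (adjusted p = 0.0518) and 1.87 (adjusted p = 0.0984). EdgeR called both (adjusted p = 0.0449 and 0.0244), and Fbln1 was higher in every NASH-CH rat than in any NASH rat. Without NASH-CH rat 5 the same 3 genes were called higher and Ecm1, a secreted matrix protein of quiescent stellate cells, fell by 0.56 (adjusted p = 0.0171). Adamtsl2, a secreted protein that binds latent TGF-β complexes, and Cpxm2, a carboxypeptidase family member, rose outside the lists and were picked after their values were seen. Adamtsl2 went from a median of 17.8 to 45.6 CPM (1.23 ± 0.25, limma-voom adjusted p = 0.0375), with overlap at the edge of the groups. Cpxm2 went from 0.286 to 2.79 CPM (3.37 ± 0.68, limma-voom adjusted p = 0.0383) with no overlap. Adamtsl2 and Cpxm2 lost their calls in 9 and 8 of the 12 fits that left out 1 rat. None of 30 matrix remodelling enzymes was called by limma-voom (10 above 0 at an unadjusted p under 0.05, beside 8.09% of all genes, and 0 by edgeR). Their median was 0.26, all 11 metalloproteinases and all 5 inhibitors lay above 0, and Timp2 had the smallest p, at 0.60 (adjusted p = 0.128), with Timp1 at 0.81 (adjusted p = 0.229).

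Of the contractile genes of myofibroblasts and smooth muscle, Tagln, which encodes transgelin, an actin-binding protein, rose in NASH-CH. It was at 5.59, 4.71, 2.87, 4.15, 5.41 and 5.06 CPM in NASH rats 1 to 6 and at 10.4, 16.8, 11.4, 7.35, 13.9 and 9.07 CPM in NASH-CH rats 1 to 6. All NASH-CH rats were above all NASH rats, and the control rats reached 7.87 CPM. Tagln rose by 1.28 ± 0.23 (limma-voom adjusted p = 0.0239). It was the 1 limma-voom call among 30 stellate and myofibroblast genes tested (3.33%, beside 0.357% of all genes called higher). EdgeR called 2 of the 30 higher, beside 126 of all 12887 genes. The 11 contractile genes had a median of 0.54 with 10 above 0, the 8 fibroblast genes a median of 0.52 with all above 0, and the 11 genes of quiescent stellate cells a median of -0.18 with 9 below 0. These medians were 0.46, 0.38 and -0.030 without NASH-CH rat 5. In that fit 2 of the 30 were called higher, Tagln and Cygb (0.98, adjusted p = 0.0461), the oxygen-binding protein of stellate cells. Another 2 were called lower, Ecm1 and Colec11 (-0.42, adjusted p = 0.0444), a collectin. Cygb, Ecm1 and Colec11 all stand among the quiescent genes, so the calls in that group went both ways. Acta2, which encodes α-SMA, was between 0.857 and 2.37 CPM in NASH and between 1.37 and 4.57 CPM in NASH-CH (0.90 ± 0.36, adjusted p = 0.239). Desmin (Des) was at 0.55 (adjusted p = 0.0915) and moesin (Msn) at 0.23 (adjusted p = 0.427). None of the genes given here for proteins that the study stained or blotted passed the test. Vwf was at 0.55 (adjusted p = 0.283), Fcgr2b at -0.18 (adjusted p = 0.556) and Nos3 at -0.09 (adjusted p = 0.835), and Mpo did not pass the filter on low counts.

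Mdm2 and Phlda3, which are induced when DNA is damaged, fell in NASH-CH. Mdm2, a ubiquitin ligase, was at 33.6, 51.4, 44.3, 34.1, 30.5 and 29.4 CPM in NASH rats 1 to 6 and at 19.1, 17.0, 25.7, 18.9, 23.0 and 26.4 CPM in NASH-CH rats 1 to 6. The groups were separate, and the median of the control rats was 18.5 CPM. Mdm2 fell by 0.77 ± 0.16 on the log2 scale (limma-voom adjusted p = 0.0383). Phlda3, a repressor of Akt, was between 12.9 and 33.0 CPM in NASH (median 24.6) and between 7.56 and 13.5 CPM in NASH-CH (median 11.6), and 1 NASH rat lay inside the NASH-CH range. Phlda3 fell by 1.07 ± 0.21 (limma-voom adjusted p = 0.0375).

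Of 21 target genes of the DNA damage response tested, 2 were called lower (9.52%, beside 0.442% of all genes) and 19 lay below 0, with a median of -0.29. At an unadjusted p under 0.05, 10 were lower, beside 7.72% of all genes. Cdkn1a, the inhibitor of cyclin-dependent kinases p21, was between 26.1 and 141 CPM in NASH and between 10.98 and 60.0 CPM in NASH-CH (-1.23 ± 0.45, adjusted p = 0.197). Gdf15, a stress-induced hormone, was at -1.45 ± 0.38 (adjusted p = 0.0930) and Ccng1 (cyclin G1) at -0.71 ± 0.23 (adjusted p = 0.148), and for all of these the groups overlapped. The calls of Mdm2 and Phlda3 were kept without NASH-CH rat 5, and each was lost in 9 of the 12 fits that left out 1 rat. Only Btg2 and Tnfrsf10b of the list lay above 0, at 0.15 and 0.55.

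**Figure D3:**
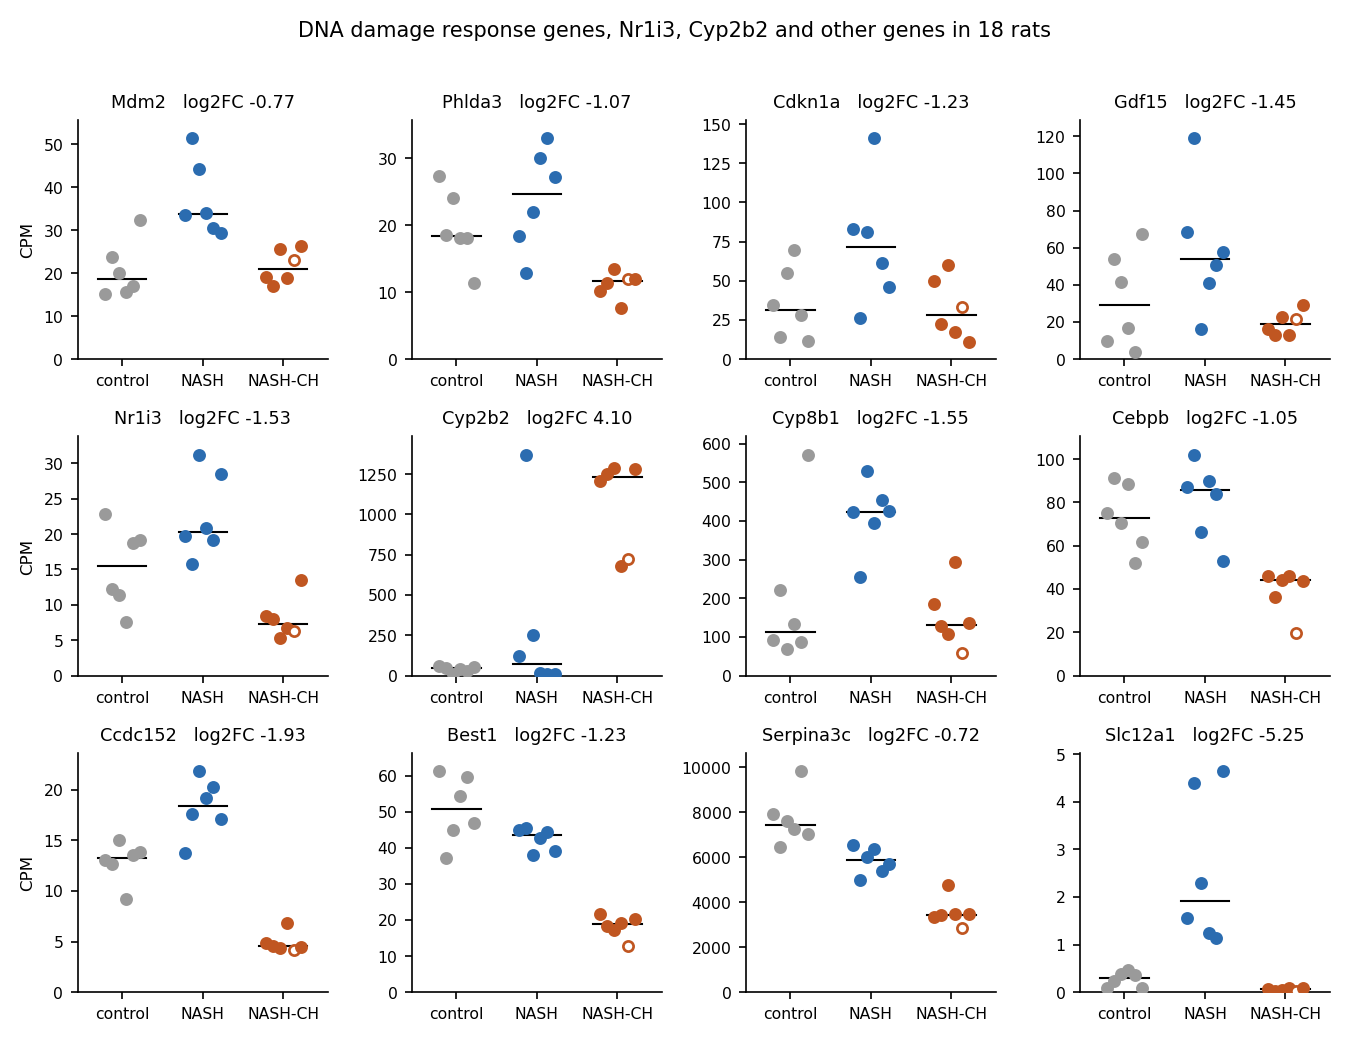
CPM of 12 genes in each of the 18 rats, by group (linear axes from 0); points within a group run from rat 1 to rat 6, the bar is the group median and the open circle is NASH-CH rat 5. Mdm2, Nr1i3, Cebpb, Ccdc152, Best1, Serpina3c and Slc12a1 lay below every NASH rat in every NASH-CH rat, whereas 1 NASH rat carried Cyp2b2 at the NASH-CH level.

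The response to phenobarbital was read from its receptor and target genes, since the drug was in the water of the NASH-CH rats until the end. Phenobarbital acts through CAR, the constitutive androstane receptor, encoded by Nr1i3, which moves to the nucleus and induces cytochromes P450, chiefly of the Cyp2b family. Nr1i3 was between 15.8 and 31.2 CPM in NASH (median 20.2) and between 5.32 and 13.5 CPM in NASH-CH (median 7.32), below every NASH rat, with a control median of 15.5 CPM. It fell by 1.53 ± 0.22 (limma-voom adjusted p = 0.00542) and stayed called whichever rat was left out. In the RefSeq gene table of another build its span overlaps that of Tomm40l, a mitochondrial import gene that rose by 0.70 (limma-voom adjusted p = 0.0375) from a median of 1.98 to 3.16 CPM, and without a stated strand setting reads of the shared stretch cannot be told apart. Cyp2b2, the classic phenobarbital-induced P450, was at 122, 1370, 249, 18.2, 7.39 and 7.52 CPM in NASH rats 1 to 6 and at 1210, 1250, 1290, 682, 724 and 1280 CPM in NASH-CH rats 1 to 6. In NASH rat 2 it was above every NASH-CH rat, and in 3 NASH rats it was below the control median of 44.8 CPM. With this spread the difference of 4.10 ± 1.42 did not pass the test (limma-voom adjusted p = 0.178). Cyp2c6v1, an abundant P450 of the same response, was between 1450 and 6866 CPM in NASH and between 5658 and 7168 CPM in NASH-CH (1.19 ± 0.34, adjusted p = 0.126). It shares sequence with other Cyp2c genes, as Cyp2b2 does with other Cyp2b genes, which leaves the split of their reads uncertain. Nr1i3 was the 1 call among 30 genes of the response (3.33%, beside 0.442% of all genes called lower), by limma-voom and by edgeR. The median of these genes was 0.07 with 16 above 0, and 0.12 without NASH-CH rat 5. The list summed to between 0.746 and 1.58 times the NASH mean in the NASH rats and to between 1.1 and 1.37 times in the NASH-CH rats.

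Cyp8b1, the sterol 12-hydroxylase that sets the amount of cholic acid, was lower in NASH-CH. It was between 256 and 529 CPM in NASH (median 424) and between 57.8 and 294 CPM in NASH-CH (median 132). The lowest NASH and the highest NASH-CH rats overlapped. The control median, 113 CPM, lay with NASH-CH, but the control rats spread from 69.3 to 571 CPM, and the highest of them lay above every NASH rat. Cyp8b1 fell by 1.55 ± 0.31 (limma-voom adjusted p = 0.0380) and lost its call in 8 of the 12 fits that left out 1 rat. It was the 1 limma-voom call among 26 genes of bile acid synthesis and transport (3.85%, beside 0.442% of all genes called lower). EdgeR called 2 of the 26 lower, beside 86 of all 12887 genes. The median of the list was -0.12, and -0.013 without NASH-CH rat 5. Slco1b2, a hepatocyte uptake transporter of bile acids and drugs, was below every NASH rat in every NASH-CH rat (701 to 965 CPM against 434 to 664 CPM) at -0.57 ± 0.13, with an adjusted p of 0.0555. It was called without NASH-CH rat 5, at -0.50 (limma-voom adjusted p = 0.0465).

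Among secreted liver proteins and their regulators, single genes moved in both directions. Lbp, the lipopolysaccharide-binding protein of the acute phase, was between 53.8 and 96.3 CPM in NASH (median 75.4) and between 112 and 382 CPM in NASH-CH (median 169). It rose by 1.24 ± 0.25 (limma-voom adjusted p = 0.0380) with no overlap, and by 1.04 without NASH-CH rat 5 (adjusted p = 0.0253). Of the 12 fits that left out 1 rat, 8 lost the call of Lbp. C7, a component of the terminal complement complex, was between 9.24 and 14.9 CPM in NASH and between 23.3 and 82.6 CPM in NASH-CH, a rise of 1.53 ± 0.28 (limma-voom adjusted p = 0.0252). These were the 2 calls among 61 acute phase, complement and coagulation genes (3.28%, beside 0.357% of all genes called higher), whose median was 0.09. Cebpb, a transcription factor of the acute phase, was lower in NASH-CH, between 19.8 and 46.0 CPM against 52.9 to 102 CPM in NASH, and fell by 1.05 ± 0.21 (limma-voom adjusted p = 0.0375). Serpina3c, a secreted protease inhibitor and the most abundant gene called, was between 4995 and 6517 CPM in NASH and between 2866 and 4777 CPM in NASH-CH, below all control rats, which lay at 6443 CPM or above. It fell by 0.72 ± 0.14 (limma-voom adjusted p = 0.0316). Cebpb and Serpina3c lost their calls in 7 and 8 of the 12 fits that left out 1 rat. Serpina3c belongs to a cluster of near-identical rodent genes, and its reads may be split among them. Ikbkb, the kinase that activates NF-κB, was picked after its values were seen. It went from 18.9 to 25.05 CPM in NASH to 27.5 to 32.5 CPM in NASH-CH, a rise of 0.46 ± 0.08 (limma-voom adjusted p = 0.0232).

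The largest increases among genes with a mean of at least 10 CPM in the higher group included several that belong to no list. Spsb4, a substrate adaptor of a ubiquitin ligase, was between 0.0779 and 3.94 CPM in NASH and between 7.61 and 24.0 CPM in NASH-CH, where control rats reached 0.770 CPM. It rose by 3.31 ± 0.69 (limma-voom adjusted p = 0.0437), the largest increase that the naming rule admitted. Spsb4 lost its call in 9 of the 12 fits that left out 1 rat. Ncald, a neuronal calcium sensor, rose by 1.43 ± 0.20 (adjusted p = 0.00542), from at most 6.27 CPM in NASH to at least 9.28 CPM in NASH-CH, and was called whichever rat was left out. Sntb1 (β1-syntrophin), Myo7b (a myosin of microvilli) and Scd2, a fatty acid desaturase, rose by 1.17, 1.1 and 1.04 (adjusted p = 0.0437, 0.0309 and 0.0405), each with separate groups. Their calls were lost in 8, 6 and 7 of the 12 fits that left out 1 rat. Of genes picked after their values were seen, Ahnak, a giant scaffold protein, went from 61.6 to 96.98 CPM in NASH to 122 to 242 CPM in NASH-CH (0.90 ± 0.16, adjusted p = 0.0239). Neb, which encodes the muscle protein nebulin, went from at most 1.38 CPM to at least 2.23 CPM (2.30 ± 0.48, adjusted p = 0.0448). Ces2i, a carboxylesterase of a family with near-identical members, went from a median of 3.67 to 15.7 CPM (1.76 ± 0.34, adjusted p = 0.0371), with 1 NASH rat at 13.4 CPM inside the NASH-CH range. Neb and Ces2i lost their calls in 9 and 7 of the 12 fits that left out 1 rat. The adjusted p-values of this paragraph and the next are from limma-voom.

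The smallest p-value of all belonged to Ccdc152, a gene named for a coiled-coil domain. It was between 13.7 and 21.8 CPM in NASH (median 18.4), between 9.23 and 15.0 CPM in the control rats and between 4.13 and 6.81 CPM in NASH-CH (median 4.51). Every NASH-CH rat was below every rat of both other groups. Ccdc152 fell by 1.93 ± 0.14 (limma-voom adjusted p = 2.6e-05). Its span overlaps that of Selenop, the selenium transport protein of plasma, in the RefSeq gene table, and reads of the 2 genes may be mixed. Selenop was at a median of 836 CPM in NASH and 721 CPM in NASH-CH (-0.26, adjusted p = 0.446). Best1 (bestrophin, an anion channel) was between 38.0 and 45.6 CPM in NASH and between 12.9 and 21.7 CPM in NASH-CH and fell by 1.23 ± 0.12 (adjusted p = 0.000239). Crym, a thyroid hormone-binding protein, fell by 1.45 ± 0.27 (adjusted p = 0.0262), from at least 10.1 CPM in NASH to at most 9.97 CPM in NASH-CH, with the lowest NASH and the highest NASH-CH rat almost touching. Scand1, a SCAN domain protein, fell by 1.34 ± 0.20 (adjusted p = 0.00614), Pgls, an enzyme of the pentose phosphate pathway, by 0.72 ± 0.13 (adjusted p = 0.0252) and Nol7, a nucleolar protein, by 0.55 ± 0.07 (adjusted p = 0.00322).

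Of the 57 genes called lower, 19 carried placeholder symbols, against 3 of the 46 called higher, and 2 of the 19 held identical values in every rat and are 1 measurement. Hist2h4a, a histone H4 gene, was between 9.91 and 15.9 CPM in NASH and between 5.13 and 8.93 CPM in NASH-CH (-0.86 ± 0.15, limma-voom adjusted p = 0.0227). Rps21, a ribosomal protein gene picked after its values were seen, fell by 0.45 ± 0.08 (adjusted p = 0.0216). Its processed pseudogene Rps21-ps1 fell by 0.63 ± 0.10 (adjusted p = 0.00955), and reads may pass between them. Rpl36 fell by 0.48 ± 0.10 (adjusted p = 0.0383) and lost its call in 10 of the 12 fits that left out 1 rat. Rpl36, Ang2 and Slc12a1 were also picked after their values were seen. Ang2, a ribonuclease of the angiogenin family with close paralogs, was between 0.985 and 2.18 CPM in NASH, between 1.16 and 1.71 CPM in the control rats and between 0.0636 and 0.294 CPM in NASH-CH, a fall of 3.25 ± 0.36 (adjusted p = 0.000859). Slc12a1, the salt cotransporter of the kidney tubule, had the largest fall of all named genes. It was between 1.14 and 4.64 CPM in NASH, between 0.0777 and 0.462 CPM in the control rats and between 0.0159 and 0.0900 CPM in NASH-CH, a fall of 5.25 ± 0.64 (limma-voom adjusted p = 0.0017). NASH rats stood above both other groups. The share of signal recognition particle and 7SK RNAs and the depth moved with these decreases, as given above, and their part in them was not tested; when NASH-CH counts were thinned to the NASH depth, 46 genes were called lower and 52 higher, and 77 of the 94 calls that could be tested again were kept.

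**Figure D4:**
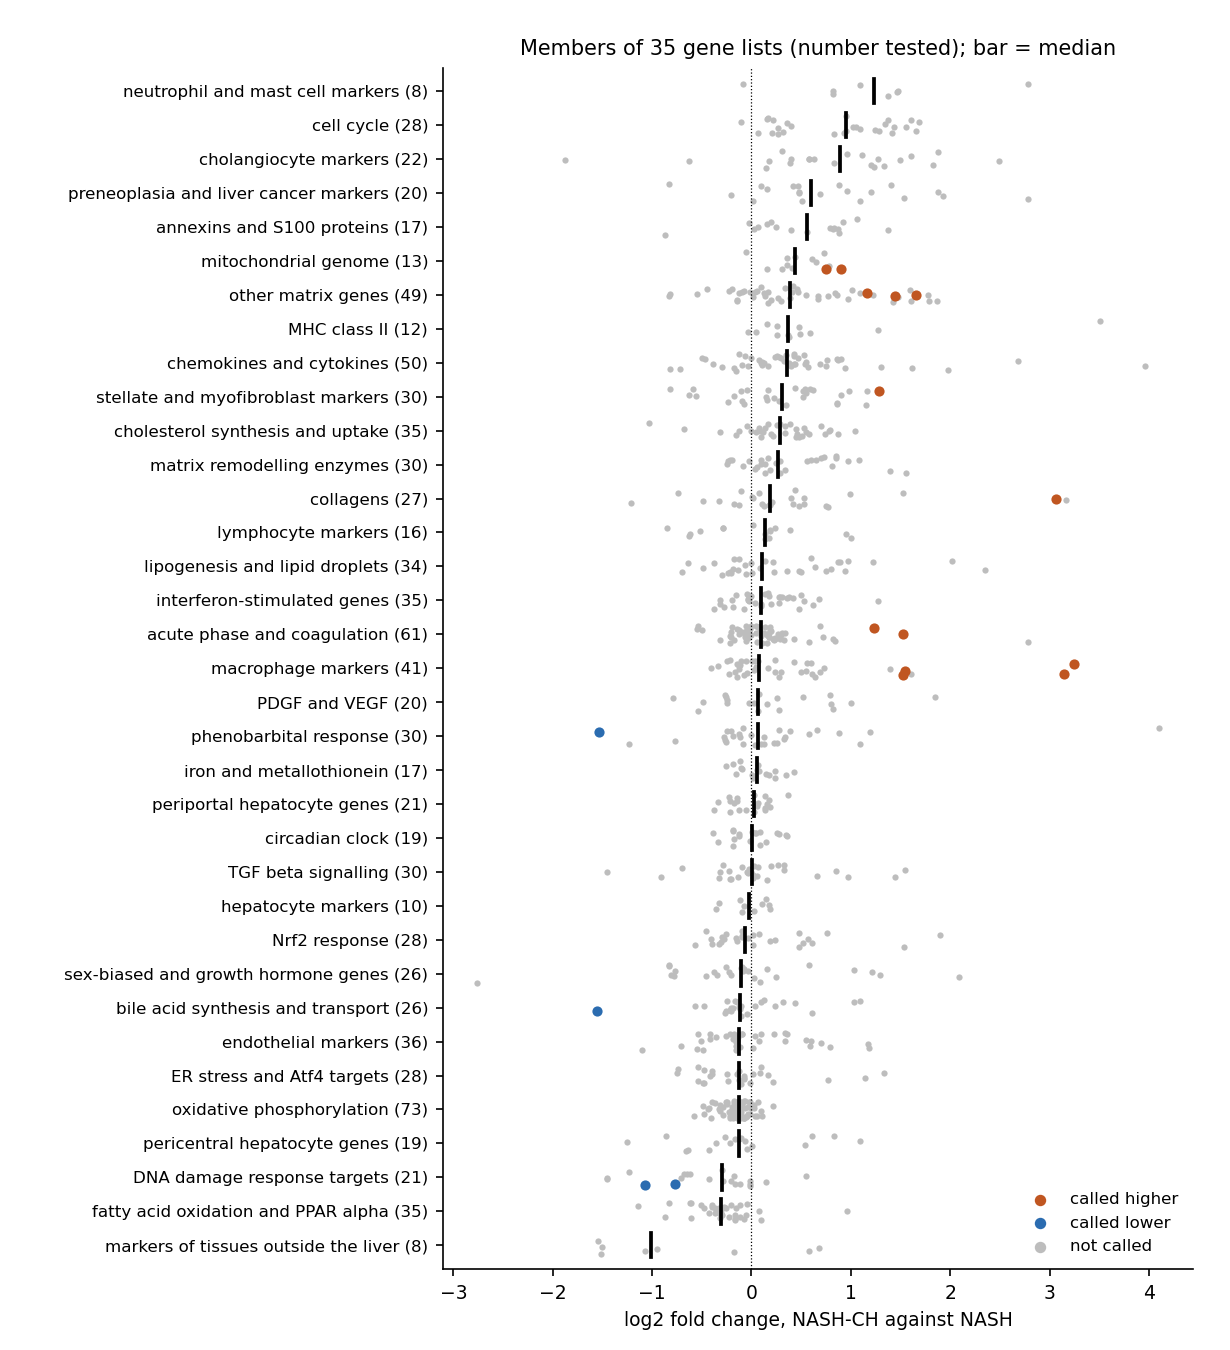
Log2 fold change, NASH-CH against NASH, of the tested members of 35 gene lists (1 point per gene, the number tested in brackets), ordered by the median of each list (black bar). Called members are orange (higher) or blue (lower); 17 genes of these lists were called, 13 higher and 4 lower.

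Mt-nd2 and Mt-nd4, genes of the mitochondrial genome, rose in NASH-CH. Mt-nd2, a complex I subunit, was between 291 and 590 CPM in NASH and between 795 and 1053 CPM in NASH-CH, above every NASH rat and every control rat (285 to 415 CPM). It rose by 0.90 ± 0.19 (limma-voom adjusted p = 0.0437). Mt-nd4, of the same complex, was between 493 and 894 CPM in NASH and between 1100 and 1328 CPM in NASH-CH and rose by 0.75 ± 0.15 (limma-voom adjusted p = 0.0375). Of the 13 protein-coding mitochondrial genes 2 were called (15.4%, beside 0.357% of all genes) and 12 lay above 0, with a median of 0.44. With 1 rat left out, Mt-nd2 lost its call in 10 and Mt-nd4 in 7 of the 12 fits. Mt-nd4l and Mt-nd1 followed at 0.78 (adjusted p = 0.0518) and 0.73 (adjusted p = 0.0760), and Mt-nd3 lay at -0.06. Together these genes took 2.32% ± 0.156 of the counts in NASH and 2.92% ± 0.620 in NASH-CH (exact permutation p = 0.0368, both sides), and NASH-CH rats spanned 2.03% to 3.90%. With 1 rat left out that p lay between 0.00216 and 0.0736, and it was above 0.05 in 9 of the 12 cases. None of 73 nuclear genes of oxidative phosphorylation was called by limma-voom (15 below 0 and 1 above at an unadjusted p under 0.05, beside 7.72% and 8.09% of all genes, and 1 lower by edgeR). Of these genes 64 lay below 0 with a median of -0.13, and of -0.080 without NASH-CH rat 5. Ndufb2, of complex I, had the smallest p, at -0.39 (adjusted p = 0.0615).

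No gene of the lipid lists was called by limma-voom. Scd2, the fatty acid desaturase given above, stands outside these lists and was called higher, at 1.04 (limma-voom adjusted p = 0.0405). Of 35 genes of fatty acid oxidation and its regulator PPARα, 32 lay below 0 with a median of -0.31, and 7 below and 1 above had an unadjusted p under 0.05, with 0 called by edgeR. Of all genes, 7.72% lay below and 8.09% above at that p. Acaa2, the thiolase that ends each round of mitochondrial oxidation, was between 430 and 746 CPM in NASH and between 206 and 456 CPM in NASH-CH (-0.87 ± 0.20, adjusted p = 0.0648), and Eci1, an isomerase for unsaturated fats, was at -1.14 (adjusted p = 0.141). The median of this list was -0.14 without NASH-CH rat 5, in which the list summed to 0.431 of the NASH mean, against 0.719 to 0.971 in the other NASH-CH rats. The 18 genes of fatty acid synthesis had a median of 0.61 with 14 above 0, of which 4 had an unadjusted p under 0.05, and edgeR called 0 of the lipogenesis list. Scd, the main stearoyl-CoA desaturase of liver, ranged from 18.2 to 506 CPM in NASH and from 401 to 1274 CPM in NASH-CH, with a control median of 4199 CPM (2.35 ± 0.91, adjusted p = 0.231). Acaca, the first enzyme of synthesis, was at 0.80 (adjusted p = 0.131) and passed the test without NASH-CH rat 5, at 1.00 (adjusted p = 0.0253). Of 21 enzymes of cholesterol synthesis, 19 lay above 0 with a median of 0.45, with 3 at an unadjusted p under 0.05 and 0 called by edgeR.

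Several lists had a median well above 0 without a call, and in these NASH-CH rat 5 weighed heavily. Of 43 matched cell cycle genes 28 were tested, and of 29 matched cholangiocyte markers 22. Members low in NASH can pass the filter on low counts through the NASH-CH rats alone. Medians and counts above 0, here and in the next paragraph, are therefore no independent support. Of all 12887 genes, 8.09% lay above 0 and 7.72% below at an unadjusted p under 0.05, and edgeR called 126 higher. The 28 cell cycle genes tested had a median of 0.95, with 27 above 0 and 0 called (5 at an unadjusted p under 0.05, and 1 called by edgeR), and their median was 0.37 without NASH-CH rat 5. Mki67, the proliferation antigen, was between 1.44 and 2.38 CPM in NASH, at 40.0 CPM in NASH-CH rat 5 and between 2.39 and 3.82 CPM in the other NASH-CH rats, with a control range of 4.54 to 14.3 CPM. The cell cycle list summed to 4.82 times the NASH mean in NASH-CH rat 5, to between 1.2 and 1.59 times in the other NASH-CH rats and to between 1.5 and 2.44 times in the control rats. Cyclin D1 (Ccnd1), which starts the cycle, was between 7.25 and 14.5 CPM in NASH and between 18.4 and 114 CPM in NASH-CH, with no overlap (1.69 ± 0.39, limma-voom adjusted p = 0.0621). Without NASH-CH rat 5 it rose by 1.38 (adjusted p = 0.0253). MHC class II genes, of antigen-presenting cells, summed to 4.49 times the NASH mean in NASH-CH rat 5 and to between 0.878 and 1.61 times in the others (12 tested, 0 called by limma-voom or edgeR, 1 at an unadjusted p under 0.05), and Cd74, their invariant chain, was at 399 CPM in that rat against 65.0 to 116 CPM. The 22 cholangiocyte markers had a median of 0.90 with 20 above 0 and 0 called (9 at an unadjusted p under 0.05 above 0 and 1 below, and 1 called by edgeR), and a median of 0.49 without NASH-CH rat 5. Sox9, a factor of bile duct and progenitor cells, reached 2.78 CPM in NASH-CH rat 5 against at most 0.765 CPM in the others (1.87, adjusted p = 0.250). Cdh17, the liver-intestine cadherin, was counted in this list and went the other way, with 45.5 to 121 CPM in NASH and 4.16 to 75.0 CPM in NASH-CH (-1.88, adjusted p = 0.197). Its level was far above that of Sox9, at most 0.371 CPM in NASH, and the cells that express it were not tested. Hepatocyte markers summed to 0.704 of the NASH mean in NASH-CH rat 5, against 0.847 to 1.15 in the other NASH-CH rats and 0.778 to 1.25 in the NASH rats. The part of cell composition in these values was not tested.

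**Figure D5:**
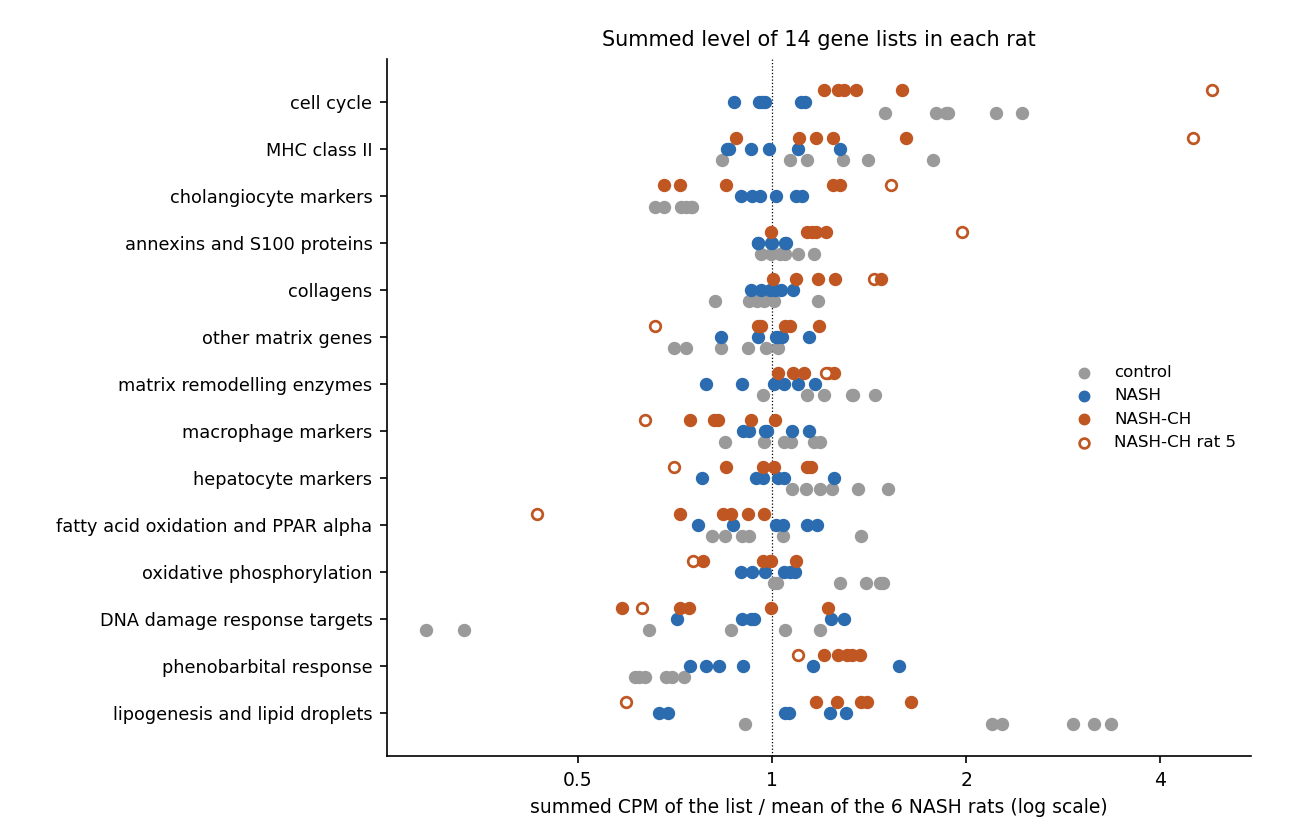
Summed CPM of 14 gene lists in each of the 18 rats, divided by the mean of the 6 NASH rats (log scale); grey, blue and orange points are control, NASH and NASH-CH rats and the open circle is NASH-CH rat 5. That rat stands at 4.82 for the cell cycle, 4.49 for MHC class II and 0.431 for fatty acid oxidation, apart from the other NASH-CH rats.

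Annexins and S100 proteins, calcium-binding proteins of ducts, stroma and leukocytes, had a median of 0.55 over 17 genes, with 15 above 0 and 0 called (7 at an unadjusted p under 0.05, 0 called by edgeR), and of 0.24 without NASH-CH rat 5. Anxa1 had the smallest p, at 0.87 (limma-voom adjusted p = 0.131). Among 20 markers of preneoplasia and liver cancer the median was 0.60, and none was called by limma-voom. At an unadjusted p under 0.05, 8 lay above 0 and 1 below, beside 8.09% and 7.72% of all genes. EdgeR called 2 higher, beside 126 of all 12887 genes. Akr1b10, an aldo-keto reductase of liver tumours, was between 0.477 and 2.16 CPM in NASH and between 2.59 and 5.37 CPM in NASH-CH, with no overlap (1.53 ± 0.34, limma-voom adjusted p = 0.0591). Glypican-3 (Gpc3), an oncofetal surface protein, was between 0.674 and 1.23 CPM in NASH and between 1.61 and 7.15 CPM in NASH-CH, also with no overlap (1.93 ± 0.52, limma-voom adjusted p = 0.103). Both missed the threshold by limma-voom and were called by edgeR (adjusted p = 0.0462 and 0.0149). Of 24 neutrophil and mast cell markers only 8 passed the filter on low counts, with a median of 1.23, of 0.82 without NASH-CH rat 5, and 0 called (2 at an unadjusted p under 0.05, 0 called by edgeR). Of 14 neutrophil genes 3 were tested, all above 0. Genes can pass this filter through the NASH-CH rats alone, so the median is no independent support. Lcn2, a neutrophil and acute phase protein, ranged from 1.01 to 116 CPM in NASH and from 15.0 to 191 CPM in NASH-CH (2.79 ± 1.02, adjusted p = 0.205), so that its range within NASH was wider than the difference.

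All 13 genes of liver sinusoidal endothelium lay below 0, with a median of -0.36, of -0.18 without NASH-CH rat 5, and 0 called (endothelial list of 36 genes, 4 higher and 6 lower at an unadjusted p under 0.05, and 0 called by edgeR). Stab1, a scavenger receptor of these cells, had the smallest p, at -0.71 (limma-voom adjusted p = 0.0927), between 26.8 and 39.3 CPM in NASH and between 13.1 and 33.8 CPM in NASH-CH. The 12 genes of capillary, venous or arterial endothelium had a median of 0.16. In the pericentral zone of the lobule, Rhbg and Glul, for ammonium transport and glutamine synthesis, were at -1.25 (adjusted p = 0.0930) and -0.66 (adjusted p = 0.127), and the medians of the 19 pericentral and 21 periportal genes were -0.13 and 0.03, and 0.0011 and 0.11 without NASH-CH rat 5. The pericentral genes went both ways, with 5 above 0 and 14 below and a highest value of 1.09. At an unadjusted p under 0.05, 3 of them lay above 0 and 3 below, beside 8.09% and 7.72% of all genes. Neither these zonal lists nor the remaining ones held a call by limma-voom. At an unadjusted p under 0.05 they held between 0 and 5 genes above 0 and between 0 and 6 below, except chemokines and cytokines with 9 above. Calls by edgeR were 1 higher and 1 lower in each of the Nrf2 and PDGF and VEGF lists, 1 lower for TGF-β and 1 higher for chemokines, and 0 in the others. The medians of the remaining lists, each with the gene of the smallest p, were 0.0037 for TGF-β signalling (Bmp2, -0.70, adjusted p = 0.0790), 0.07 for PDGF and VEGF (Pdgfc, -0.79, adjusted p = 0.0518), -0.06 for the Nrf2 response (Txn1, -0.32, adjusted p = 0.0529) and 0.36 for chemokines and cytokines (Il7, 0.75, adjusted p = 0.106). They were 0.14 for lymphocyte markers (Gzma, -0.85, adjusted p = 0.146), 0.10 for interferon-stimulated genes (Irgm, 0.53, adjusted p = 0.217), -0.12 for ER stress (Trib3, -0.75, adjusted p = 0.143) and 0.0055 for the circadian clock (Nr1d1, -0.38, adjusted p = 0.615). For sex-biased and growth hormone genes the median was -0.10 (Prlr, 2.09, adjusted p = 0.0938) and for iron genes 0.06 (Slc39a14, 0.43, adjusted p = 0.139). Without NASH-CH rat 5 the median changed sign for lymphocyte markers (-0.15) and TGF-β signalling (-0.0029). It was then 0.0078 for interferon-stimulated genes, 0.21 for chemokines and cytokines, 0.038 for PDGF and VEGF, -0.036 for the Nrf2 response, -0.012 for sex-biased and growth hormone genes, 0.11 for iron genes and 0.16 for the circadian clock. Of markers of tissues outside the liver 8 of 34 were tested and 0 called (1 higher and 4 lower at an unadjusted p under 0.05, 0 by edgeR). Hbb, a haemoglobin chain of red blood cells, differed widely between rats. It was at 239 CPM in NASH rat 3, at 18.5 to 47.6 CPM in the other NASH rats and at 4.86 to 31.0 CPM in NASH-CH (-1.55, adjusted p = 0.229).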

How the data were processed

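Liver RNA of 18 rats was sequenced as 1 library per rat. The authors trimmed the reads, aligned them to Rnor_6.0 with STAR and deposited, per rat, RSEM's expected counts (32623 genes, Ensembl release 95), not normalized; FastQC and Trim Galore are named in the submitters' processing notes, and versions are not given in the sources used here. The expected counts were rounded (7.12% were not whole). Rows of small RNAs and of signal recognition particle and 7SK RNAs (4514, by symbol) were dropped, and 28109 were kept. Expected counts depend on how RSEM shares reads between similar genes, and strand setting is not given in the sources used here. NASH and NASH-CH rats were fitted alone with limma 3.58.1 (voom, moderated statistic) after TMM scaling and filterByExpr in edgeR 4.0.16 (R 4.3.3), with Benjamini-Hochberg adjustment at 0.05. CPM were TMM-scaled with the same reference library in the 18 rats. Log2 fold changes and SE are from voom. The script was tested on simulated data.

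Named were the 12 largest increases and decreases among called genes with a mean of at least 10 CPM in the higher group, separate groups and a symbol that is not a placeholder, up to 4 called members per list and direction or the member of the smallest p where none was called, and the genes of the study's stained or blotted proteins; a few of these are not reported here. Other list members are given as values, and genes outside these rules are marked as picked after their values were seen. The comparison and the 35 gene lists were chosen with earlier results of these data known. List genes that were not matched by symbol are not analysed here. Of the 103 called symbols, 12 overlap another tested gene in a RefSeq table of GRCr8, from which no gene coordinates were taken. Promoter windows are from RefSeq, GRCr8. Alternatives were DESeq2 1.42.0, the quasi-likelihood test of edgeR, other scalings, filters and thresholds, all 18 rats in 1 fit, sample quality weights, the replicate number as a block, thinned counts, other rows kept or dropped, and leaving out each rat. Totals bound counting error only, and 6 rats per group limit the precision. The smallest chi-square per degree of freedom between 2 rats of a group was 29.9 in NASH and 68.6 in NASH-CH, so no pair was as close as counting error.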

Additional observations from a re-analysis of the deposited data

Results flagged for a closer look

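In groups of 6 rats, the highest or lowest rat stood apart from the others by Dixon's criterion in 21 of 230 groups of values examined, and chance gives about 1 in 20. NASH-CH rat 5 was that rat most often, and these are readings of 1 library. It was highest for Lyz2 (108 CPM), Scd2 (32.2 CPM), Cela1 (25.6 CPM), Mki67 (40.0 CPM), Sox9 (2.78 CPM) and Cd74 (399 CPM), and lowest for Cebpb (19.8 CPM), Acaca (55.2 CPM) and Colec11 (21.8 CPM). It also had the most genes with at least 10 counts, 14298, against at most 13495 in the other NASH-CH rats. Lyz2, Scd2 and Cebpb are called genes, and all were called without this rat.

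Other NASH-CH rats stood apart for Ccdc152 (rat 4, 6.81 CPM, highest), Rhbg (rat 2, 8.33 CPM, highest) and Nr1d1 (rat 6, 57.5 CPM, highest). Among NASH rats, Lyz2 was highest in rat 4 (19.5 CPM), C7 lowest in rat 3 (9.24 CPM), Sntb1 lowest in rat 5 (2.53 CPM), Cdh17 highest in rat 3 (121 CPM) and Hbb highest in rat 3 (239 CPM). Among library measures, the share of small RNAs was highest in NASH-CH rat 6 (0.745%), and the share of 7SL RNA from Rn7sl1 was highest in NASH rat 4 (11.2%, against at most 5.80% in the others) and in NASH-CH rat 4 (2.68%, against at most 0.246%).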

How the results depend on the processing

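The number of genes called depended on the test and on single rats, while no gene called by the reported fit changed direction in any of the 24 alternative fits. Counts are given as all, higher and lower, beside 103, 46 and 57. They were 732, 438 and 294 with DESeq2, 212, 126 and 86 with edgeR's quasi-likelihood test, 373, 189 and 184 with sample quality weights, 263, 130 and 133 with all 18 rats in 1 fit, 349, 105 and 244 with small RNA rows kept, 159, 70 and 89 without a filter on low counts, 64, 17 and 47 with library size alone, 27, 4 and 23 at an adjusted p under 0.01, and 63, 32 and 31 at an absolute log2 fold change of at least 1. Of the 103 genes, DESeq2 kept 102, edgeR 100, sample quality weights 103, the fit with small RNA rows 103, and library size alone 56. Leaving out each rat gave 33 to 191 calls, 5 to 93 higher and 28 to 108 lower, and only 5 of the 46 higher and 25 of the 57 lower genes were called in all of these fits in which they were tested. The larger counts without NASH-CH rats 5 and 6 were 191 and 156, the lowest without a NASH-CH rat 46 (rat 2). The share called higher lay between 15.2% and 65.3% over the 24 alternative fits, a range that leaves out the stricter thresholds on the reported fit. The cause was not tested.

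With the replicate number as a block, 101 genes were called, 66 higher and 35 lower, and 50 of the 103 were kept. No label ties equal numbers to a shared cage, day or batch, and the numbers did not pair the rats: the correlations of pairs 1 to 6 were 0.159, 0.104, 0.0128, -0.107, -0.0102 and 0.0142, and 3 of 12 rats correlated best with their own number. Leaving out each rat moved the excess of mitochondrial protein-coding counts in NASH-CH between 0.402 and 0.776 percentage points (exact permutation p between 0.00216 and 0.0736), that of all mitochondrial counts between 2.33 and 4.30 (p between 0.0368 and 0.201) and that of the top 10 genes between 1.67 and 3.07 (p between 0.0173 and 0.175). Of 2480 alternative values of 105 named genes, 243 lost and 145 gained a call and 1 changed sign, Alb, which was never called (-0.12, between -0.20 and 0.029 with 1 rat left out, and above 0 without NASH-CH rat 5). Counting error weighs most on genes under 1 CPM in the shallower NASH libraries.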
